A study of Macaca mulatta with 24 samples.

Results

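The subunits of the transcription factor NF-kB and the inhibitors of its pathway were examined in whole blood of rhesus macaques after 4 Gy total body irradiation. The set comprised 10 genes, namely the subunits NFKB1, NFKB2, REL, RELA and RELB and the inhibitors NFKBIA, NFKBIB, NFKBIE, TNFAIP3 and BCL3. Every non-control probe that the scanner output names for one of them was taken. This gave 13 probes of 8 genes, out of 43603 probes and 15045 distinct gene symbols on the array. NFKBIE and BCL3 had no probe under their names and were not analysed here.

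Blood RNA was depleted of globin transcripts and measured on 24 one-colour (Cy3) Agilent arrays. The animals were adult macaques of Chinese origin, with no transgene or other genetic change, and 7 animal numbers (4 male, 3 female) are represented. The groups were 7 pre-irradiation arrays, 4 arrays at day 3 (3 male, 1 female), 6 at day 5 (4 male, 2 female) and 7 at day 7. The labels give X-rays and a control taken at day 0. The methods give cobalt gamma rays and a control drawn before the exposure. A replicate number marks the same animal at every time, so each animal served as its own control and no unirradiated animal was followed on these arrays.

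By scan time the arrays form 2 sessions over 6 slides. The first has 6 of the 7 pre-irradiation and 6 of the 7 day 7 arrays. In session 2 are all 4 day 3 and all 6 day 5 arrays, together with the pre-irradiation and day 7 arrays of animal 5. Days 3 and 5 can therefore be set against unirradiated blood within a session only through the control of animal 5. That animal has no day 3 or day 5 array. In fits of 2 groups blocked on the session, these days are therefore compared with the lone control of a different animal. Animal and session cannot be told apart there. Day 7 can be compared within session 1. Per array, 48.3 to 61.2% of the probes were well above background. All 13 probes passed the filter on dim signal (4 or more of the 24 arrays well above background), 10 of them on every array, and none was saturated. The number of arrays limits the precision.

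NF-kB is a family of dimeric transcription factors that switch on genes of inflammation, cell survival and lymphocyte activation. In resting cells the dimers are held in the cytoplasm by IkB proteins such as NFKBIA and NFKBIB, and in the classical branch the IKK kinase complex marks these inhibitors for destruction and frees dimers of RELA or REL with the product of NFKB1. In the alternative branch a precursor made from NFKB2 is processed and enters the nucleus with RELB. Several members, NFKBIA, TNFAIP3, NFKB2 and RELB among them, are themselves NF-kB target genes, and ionizing radiation is a known activator of the pathway.

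Probe sequences are shown for NFKB2, RELA, RELB and REL, because the probes of 1 gene differed in the size of their change and a reader may want to place them. All are written 5′ to 3′ in the sense of the transcript and are 60 bases long, with positions on the rheMac2 build as the scanner output gives them. NFKB2 probe 1 lies at chr9:102058613-102058788 and NFKB2 probe 2 at chr9:102055611-102055751, both on the plus strand, and each crosses a splice junction. RELA probe 2 lies at chr14:8766951-8767010 and RELA probe 3 at chr14:8762385-8762444, both on the plus strand and each in 1 unbroken block. RELB probe 1 spans chr19:51445360-51449863 on the plus strand across a splice junction, and REL probe 1 lies at chr13:61086239-61086298 on the plus strand.
NFKB2 probe 1: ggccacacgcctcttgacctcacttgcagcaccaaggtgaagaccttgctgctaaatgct
NFKB2 probe 2: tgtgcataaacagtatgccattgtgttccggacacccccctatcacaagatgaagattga
RELA probe 2: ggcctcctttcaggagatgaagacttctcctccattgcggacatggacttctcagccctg
RELA probe 3: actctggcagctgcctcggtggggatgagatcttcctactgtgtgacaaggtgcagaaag
RELB probe 1: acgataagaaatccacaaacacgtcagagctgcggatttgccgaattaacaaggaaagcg
REL probe 1: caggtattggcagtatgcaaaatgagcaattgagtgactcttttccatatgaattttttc

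The probes of NFKB2 and those of RELA share no run of more than 6 bases, so they read separate stretches of the transcript. The 2 NFKBIB probes share 54 of their 60 bases and are close to 1 measurement. The GC content of the printed probes runs from 35% in REL probe 1 to 55% in NFKB2 probe 1 and in RELA probes 2 and 3.

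The irradiated groups were set against the 7 controls with limma over all probes, on the log2 scale of the processed signal normalized to the median array. Changes with a Benjamini-Hochberg adjusted p under 0.005 over all probes tested, two-sided, are called. A gene is represented by its brightest probe, listed as probe 1 for the members. For members only probes named by the scanner output count, so brighter REL and RELB probes known by accession are left out. For all other genes names from RefSeq count too. The comparisons of the 3 days share their pre-irradiation arrays and are given side by side. At day 3 no member gene of 8 was called, where 13.5% of all named genes were. An unadjusted p under 0.05 was found for 3 of the 8 at day 3, where 46.9% of all named genes had one. At day 5 the rise of NFKB2 was called, 1 of 8 genes, against 15.4% of all named genes, and 2 of 8 had an unadjusted p under 0.05 (43.9% of all named genes). At day 7 no member was called, against 9.86% of all named genes, and 1 of 8 had an unadjusted p under 0.05 (38.2% of all named genes). The share of members called is therefore not above that of all genes on any of the 3 days.

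The sizes of the changes were small. Over the 8 genes the log2 changes at days 3, 5 and 7 had medians of 0.39, 0.18 and −0.16, where the median of all named genes tested was −0.00, −0.00 and −0.01. At day 3 the estimate was above 0 for 8 of 8 genes, at day 5 for 6 and at day 7 for 3. The brighter accession probes, left out of these counts, changed by −0.05, −0.45 and −0.76 for RELB and 0.02, −0.03 and 0.17 for REL. The day 3 count was 7 in the fit blocked by animal, in that blocked by scan session, and without animal 4, 5, 6 or 7. At an adjusted p under 0.05, 3 genes were higher at day 3 (NFKB2, RELA and NFKBIB) and 2 at day 5 (NFKB2 and RELA), and none was lower. The same threshold called 16.4% of all named genes higher at day 3 and 15.6% at day 5. In fits blocked by animal, NFKB2 alone of the brightest probes stayed under 0.05 on both days. RELA probe 1 had an adjusted p of 0.0752 and 0.0668, and that of NFKBIB probe 1 at day 3 was 0.140. The other RELA probes stayed under 0.05 on both days, at 0.0218 and 0.00861 for probe 2 and 0.0196 and 0.0105 for probe 3. NFKB2 probe 2 did not, at 0.223 and 0.407. With a normexp background correction the day 5 median turned to −0.16, with 2 of 8 genes above 0, so the direction of the set at day 5 depends on the background correction. The day 7 median turned to 0.09 with quantile normalization, where the median of all named genes was 0.07, and to 0.00 with normexp, where it was 0.07. When dim probes were kept it turned to 0.12 and the median of all named genes to 0.26, so that the difference of the members from all genes stayed at −0.14. Single animals also moved these medians, which were −0.05 at day 7 without animal 3 and 0.12 at day 5 without animal 1.

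**Figure D1:**
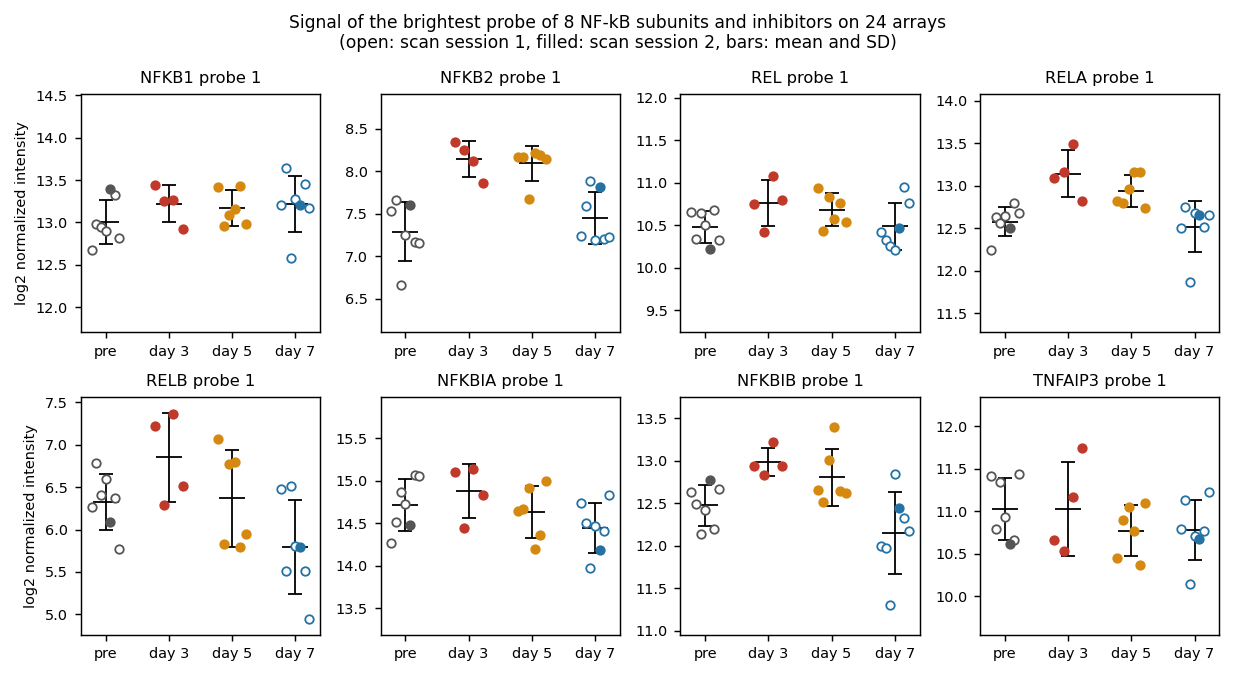
Each panel plots the log2 normalized intensity of probe 1 of a gene on each array, by group on the x axis. Points are open for scan session 1 and filled for session 2, with the mean and SD of the group. The panels span equal log2 ranges; all NFKB2 points at days 3 and 5 lie above the 7 pre-irradiation points, and those of TNFAIP3 overlap at every time.

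**Figure D2:**
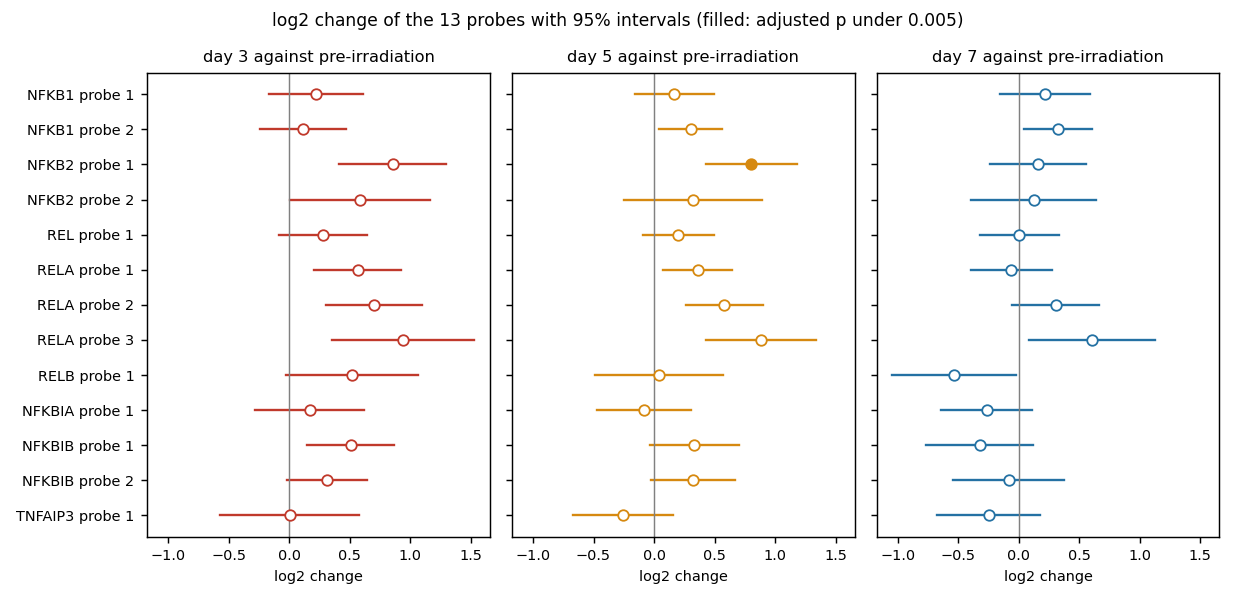
The log2 change of each of the 13 probes (points) with its 95% interval (lines) is drawn for each day against pre-irradiation, the probes on the y axis and the log2 change on the x axis. The only filled point, called at an adjusted p under 0.005, is NFKB2 probe 1 at day 5, and at day 7 the interval of RELB probe 1 lies below 0 and those of RELA probe 3 and NFKB1 probe 2 above it.

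NFKB2 encodes the precursor of the alternative branch and gave the largest change from pre-irradiation among the brightest probes at days 3 and 5, with no block in the fit. Before irradiation the log2 signal of NFKB2 probe 1 ran from 6.66 to 7.66, with a median of 7.25. At day 3 it was 8.34, 8.25, 8.12 and 7.86 in animals 1, 2, 4 and 7. At day 5 it ran from 7.67 to 8.22, with a median of 8.17, and at day 7 from 7.19 to 7.89, with a median of 7.24. All day 3 and day 5 arrays were above all 7 pre-irradiation arrays, and the day 7 arrays overlapped them, with 2 of 7 above the highest. In the same animals the signal was higher in 4 of 4 at day 3 and in 6 of 6 at day 5, by 0.51 to 1.02 on the log2 scale at day 5.

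The change of NFKB2 probe 1 was 0.85 ± 0.20 (SE) at day 3, with an adjusted p of 0.00776 by limma. It was 0.80 ± 0.17 at day 5, a rise of 1.75-fold (95% interval 1.35 to 2.26) with an adjusted p of 0.00294, and 0.16 ± 0.19 at day 7 (adjusted p 0.551). In order of level, day 3 stood highest, then day 5, day 7 and the pre-irradiation blood. Days 3 and 5 differed by 0.05 (adjusted p 0.944) and day 7 was 0.64 below day 5 (adjusted p 0.0584), neither past the threshold.

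The call at day 5 depends on single animals and on the scan session. Without animal 1, 2, 4, 6 or 7 in turn, the change of NFKB2 probe 1 stayed between 0.77 and 0.85 with adjusted p from 0.00702 to 0.0147, and the call was lost. With the scan session as a block it was 0.49 (adjusted p 0.423), and within session 2, against the lone pre-irradiation array at 7.60, it was also 0.49 (adjusted p 0.432). With normexp background correction it was 0.68 (adjusted p 0.0762). At day 3 the session-blocked change was 0.54 (adjusted p 0.419). The part of the scan session in the rise cannot be told apart from that of the day beyond this 1 array.

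NFKB2 probe 2 is dim, well above background on 4 of the 7 pre-irradiation arrays and on 4, 5 and 6 arrays at days 3, 5 and 7. Its signal ran from 4.64 to 6.24 before irradiation and was 6.35, 6.01, 6.40 and 6.01 at day 3 in animals 1, 2, 4 and 7. The change was 0.59 ± 0.26 at day 3 (adjusted p 0.102), 0.32 ± 0.27 at day 5 (adjusted p 0.372) and 0.12 ± 0.24 at day 7. Its estimates have the sign of those of NFKB2 probe 1 at each day, with wider intervals, and its groups overlap at every day. At day 7 it was lower than before irradiation in 5 of 7 animals, and without animal 3 its change turned to −0.19.

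RELA encodes p65, the main activating subunit of the classical branch, and has 3 probes. Before irradiation RELA probe 1 ran from 12.24 to 12.80, and at day 3 it was 13.10, 13.17, 13.49 and 12.82 in animals 1, 2, 4 and 7. These 4 arrays lay above all 7 controls. At day 5 it ran from 12.74 to 13.16 with 4 of 6 arrays above the controls, and at day 7 from 11.86 to 12.75 with none above them.

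RELA probe 2 ran from 9.40 to 10.18 before irradiation and was 10.28, 10.41, 10.71 and 10.15 at day 3. It ran from 10.01 to 10.45 at day 5 and from 9.59 to 10.41 at day 7. Of the arrays at days 3, 5 and 7, 3, 5 and 2 were above the highest control, that of animal 6. RELA probe 3 ran from 5.42 to 6.87 before irradiation, was 6.93, 6.97, 7.61 and 6.86 at day 3, and ran from 6.75 to 7.30 at day 5 and from 6.18 to 7.37 at day 7. For each of the 3 RELA probes the signal was higher than before irradiation in 4 of 4 animals at day 3 and in 6 of 6 at day 5.

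The log2 changes of RELA at day 3 were 0.56 ± 0.16, 0.70 ± 0.18 and 0.94 ± 0.27 for probes 1, 2 and 3, with adjusted p of 0.0201, 0.0117 and 0.0188. At day 5 they were 0.36 ± 0.13, 0.58 ± 0.15 and 0.89 ± 0.21, with adjusted p of 0.0474, 0.00787 and 0.00551. None passed 0.005. At day 7 the probes differed in sign, at −0.06 ± 0.16, 0.31 ± 0.17 and 0.61 ± 0.25 (adjusted p 0.803, 0.194 and 0.0776). The levels of RELA probe 1 stood, from high to low, in the order day 3, day 5, pre-irradiation and day 7, and no pair of neighbours in this order differed at an adjusted p under 0.005.

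With the scan session as a block the change of RELA probe 1 was 0.65 at day 3 and 0.44 at day 5, that of RELA probe 2 was 0.55 and 0.43, and that of RELA probe 3 was 1.27 and 1.21, each resting on the 1 control array of session 2 and none called. With normexp background correction RELA probe 1 turned to −0.17 at day 5, while RELA probe 3 stayed at 0.69.

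RELB, the partner of the NFKB2 product in the alternative branch, gave the widest range of estimates over the 3 days among the brightest probes. RELB probe 1 is dim and was not well above background on 3 of the 24 arrays, 1 of them before irradiation, 1 at day 5 and 1 at day 7. It ran from 5.78 to 6.79 before irradiation, was 7.23, 6.29, 7.37 and 6.52 at day 3 in animals 1, 2, 4 and 7, ran from 5.80 to 7.07 at day 5 and from 4.95 to 6.51 at day 7. The groups overlapped, with 2 of 4 day 3 arrays above the controls and 3 of 7 day 7 arrays below them. The changes were 0.52 ± 0.25 at day 3 (adjusted p 0.123), 0.04 ± 0.25 at day 5 and −0.53 ± 0.24 at day 7 (adjusted p 0.112).

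In order of level RELB probe 1 stood highest at day 3, followed by day 5, the controls and day 7. From day 3 to day 7 it was lower in 4 of 4 animals, by 0.75 to 1.57, with a change of −1.05 ± 0.33 (adjusted p 0.0466). In a fit of all 4 groups with the animal as a block this difference was −1.06 and called, at an adjusted p of 0.00276. Only 1 day 7 array shares the scan session of the day 3 arrays, so session and day cannot be told apart here.

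A further RELB probe and a further REL probe carry only an accession in the scanner output and were named through RefSeq, so they stand outside the 13. The RELB accession probe ran from 13.01 to 13.99 before irradiation and from 11.95 to 13.04 at day 7, where 6 of 7 arrays lay below all controls. It changed by −0.05 and −0.45 at days 3 and 5 and by −0.76 ± 0.21 at day 7 (adjusted p 0.0146), where the value within session 1 was −0.68 (adjusted p 0.0401). It and RELB probe 1 are both lower at day 7 by estimate. They part at days 3 and 5, where RELB probe 1 has positive estimates and the accession probe negative ones.

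REL, the c-Rel subunit of lymphocytes, and NFKB1, whose product p50 pairs with RELA, gave small estimates. REL probe 1 ran from 10.22 to 10.68 before irradiation, was 10.75, 10.42, 11.08 and 10.79 at day 3, and ran from 10.44 to 10.94 at day 5 and from 10.21 to 10.96 at day 7. It was higher than before in 4 of 4 animals at day 3 and 6 of 6 at day 5, yet the groups overlapped and the changes of 0.28 ± 0.17, 0.20 ± 0.14 and 0.00 ± 0.15 were not called (adjusted p 0.207, 0.269 and 0.986). The REL accession probe changed by 0.02, −0.03 and 0.17.

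NFKB1 probe 1 ran from 12.68 to 13.40 before irradiation and from 12.58 to 13.64 over the irradiated arrays, and it changed by 0.22, 0.17 and 0.22 with SE of 0.15 to 0.18. Blocked on the scan session it turned to −0.17 at day 3 and −0.22 at day 5, and with normexp to −0.40 at day 5. NFKB1 probe 2 ran from 10.74 to 11.24 before irradiation and from 11.25 to 11.45 at day 5, so that all 6 day 5 arrays lay above all controls. Its change of 0.30 ± 0.12 was not called (adjusted p 0.0654), and it was 0.11 ± 0.16 at day 3 and 0.32 ± 0.13 at day 7 (adjusted p 0.0797). Blocked on the scan session, the day 5 change of NFKB1 probe 2 was 0.12.

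Counted over probes, 3 of 13 lay wholly above the controls at day 3 (NFKB2 probe 1, RELA probe 1 and NFKBIB probe 1), where 8.66% of all probes tested did. At day 5 it was 2 of 13 (NFKB1 probe 2 and NFKB2 probe 1), where 5.66% of all probes did. At day 7 it was 0 of 13, where 2.57% of all probes did, and none lay wholly below the controls, where 5.92% did.

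Among the inhibitors, NFKBIB, which encodes IkB beta and holds dimers in the cytoplasm, had a positive estimate at day 3 and a negative one at day 7, with no call. NFKBIB probe 1 ran from 12.14 to 12.77 before irradiation, was 12.94, 12.83, 13.22 and 12.94 at day 3 in animals 1, 2, 4 and 7, ran from 12.52 to 13.40 at day 5 and from 11.30 to 12.84 at day 7. The 4 day 3 arrays were above all controls, and the later days overlapped them. The changes were 0.51 ± 0.17 (adjusted p 0.0329), 0.33 ± 0.17 (adjusted p 0.148) and −0.32 ± 0.21 (adjusted p 0.263).

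Day 7 was below day 3 for NFKBIB probe 1 by −0.83 ± 0.26 (adjusted p 0.0472), in 4 of 4 animals. NFKBIB probe 2, nearly the same sequence, changed by 0.31 ± 0.15, 0.32 ± 0.16 and −0.08 ± 0.21 over the 3 days, which is smaller at day 3 than probe 1. Blocked on the scan session, NFKBIB probe 1 changed by 0.21 at day 3 and 0.04 at day 5.

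NFKBIA, which encodes IkB alpha, the inhibitor that NF-kB induces in its own feedback loop, overlapped the controls at every day. NFKBIA probe 1 ran from 14.27 to 15.07 before irradiation, was 15.10, 14.44, 15.14 and 14.83 at day 3, and ran from 14.20 to 15.00 at day 5 and from 13.97 to 14.83 at day 7. At day 7 it was lower than before in 6 of 7 animals. The changes were 0.17 (95% interval −0.28 to 0.62), −0.08 (−0.47 to 0.31) and −0.27 (−0.64 to 0.11), none called.

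TNFAIP3 encodes A20, a ubiquitin-editing enzyme that shuts off signalling to IKK. TNFAIP3 probe 1 ran from 10.61 to 11.44 before irradiation, was 10.66, 10.54, 11.17 and 11.75 at day 3, and ran from 10.37 to 11.10 at day 5 and from 10.14 to 11.22 at day 7. Animal 7 was the highest at day 3 and had the highest control value too. The changes were 0.00 (95% interval −0.57 to 0.58), −0.26 (−0.67 to 0.16) and −0.25 (−0.67 to 0.17), none called.

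**Figure D3:**
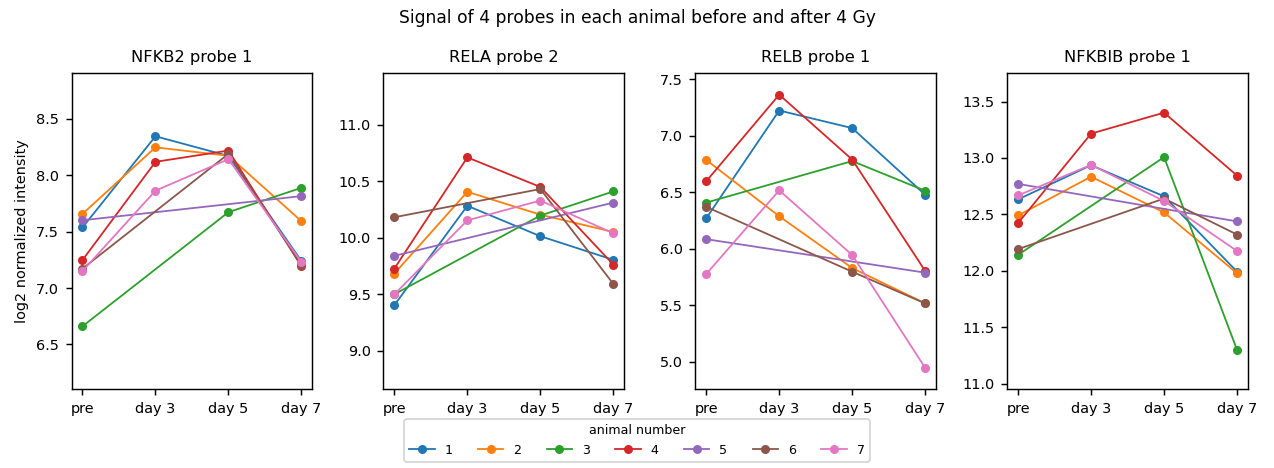
Lines join the log2 normalized intensity of NFKB2 probe 1, RELA probe 2, RELB probe 1 and NFKBIB probe 1 of each animal across the sampling times on the x axis, passing over a time with no array. NFKB2 is lower at day 7 than at day 5 in 5 of 6 animals and higher in animal 3, whose NFKBIB signal is the lowest of day 7 at 11.30.

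Between the irradiated days no member gene was called. For day 5 against day 3 this was 0 of 8, where 0.0368% of all named genes were called, and 0 of 8 had an unadjusted p under 0.05, against 11.1% of all named genes. Both days lie wholly in session 2. For day 7 against day 3 it was 0 of 8, where 1.6% of all named genes were called, with 4 of 8 at an unadjusted p under 0.05 (34.3% of all named genes). At an adjusted p under 0.05, 3 members were lower at day 7 than at day 3 (NFKB2 by −0.69, RELB and NFKBIB), where 9.57% of all named genes were. The adjusted p of NFKBIB was 0.0576 when blocked by animal. For day 7 against day 5 it was 0 of 8, where 0.00919% of all named genes were called, with 3 of 8 at an unadjusted p under 0.05 (21% of all named genes).

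The response of male and female animals was compared at day 7, where all 7 numbers have both arrays. The fit held sex, day and their interaction with no term for the animal, so it did not use the pairing. The difference between the sexes was called for none of the 13 probes (limma interaction, adjusted p under 0.05, also none at an unadjusted p under 0.05), as for 0% of all probes. The smallest adjusted p was that of REL probe 1, 0.588, for changes of −0.23 in males and 0.32 in females.

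By the root mean square difference of log2 levels over the 24 arrays, each gene centred on its pre-irradiation mean, the genes most like NFKB2 were CSNK1D (0.25), SLC38A10 (0.28) and SLC12A4 (0.28). Their mean changes at days 3, 5 and 7 were 0.83, 0.64 and 0.15 for CSNK1D, 0.70, 0.61 and 0.43 for SLC38A10, and 0.87, 0.66 and 0.11 for SLC12A4. All 3 were well above background on every array.

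The called shares of all named genes against which the pathway lists are read were, at days 3, 5 and 7, 5.96, 6.24 and 2.67% higher and 7.58, 9.12 and 7.19% lower. Of the 11 IKK kinases and activating kinases, 0 were called on any of the 3 days, where 13.5, 15.4 and 9.86% of all named genes were called. An unadjusted p under 0.05 was found for 2, 5 and 2 of them, against 46.9, 43.9 and 38.2% of all named genes, and their median log2 change was 0.02, 0.18 and 0.06. IKBKB, the classical catalytic subunit, changed by 0.34, 0.33 and 0.06, and MAP3K14, the kinase NIK of the alternative branch, by −0.33, −0.17 and −0.18.

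Of the 13 tested adaptors upstream of IKK, out of 16 listed, 2 fell at day 3, 1 at day 5 and none was called at day 7, with 8, 6 and 4 at an unadjusted p under 0.05. The 1 of 13 at day 5 is close to the 9.12% of all named genes called lower. With the animal as a block the counts that fell were 1, 2 and 0. TRAF3, which keeps NIK low and thereby restrains the alternative branch, changed by −1.38 ± 0.20 at day 3 (adjusted p 0.000541), −1.07 ± 0.19 at day 5 (adjusted p 0.000884) and −0.41 ± 0.21 at day 7 (adjusted p 0.161). BIRC3, a ubiquitin ligase of the same complex, changed by −1.50 ± 0.19 at day 3 (adjusted p 0.000308), −0.82 at day 5 and −0.87 at day 7 (adjusted p 0.00646 and 0.00769). The day 3 changes with the scan session as a block were −0.93 for TRAF3 and −1.13 for BIRC3, neither called, and the day 5 change of TRAF3 was −0.62 (adjusted p 0.342). The day 3 call of TRAF3 was also lost with the animal as a block (adjusted p 0.00526).

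Of 4 tested receptors of the alternative branch, out of 6 listed, 1 was called higher and 1 lower at days 3 and 5. At day 7 only 1 was called, and it was lower. CD40 fell on every day and LTBR rose at days 3 and 5, and the other receptors tested were not called. CD40, a receptor of B cells and antigen-presenting cells, changed by −2.15, −2.71 and −3.14 (adjusted p 6.21e-05, 1.76e-06 and 8.41e-07). LTBR, the lymphotoxin beta receptor of myeloid and stromal cells, changed by 1.60 ± 0.20, 1.43 ± 0.18 and 0.43 ± 0.20 (adjusted p 0.00029, 5.96e-05 and 0.122). With the scan session as a block LTBR changed by 1.29 and 1.13 at days 3 and 5 and was not called, and CD40 by −1.89 and −2.45, also not called. In the fit of all 4 groups with that block CD40 was called at both days (adjusted p 0.00241 and 7.49e-05). LTBR was not called at day 3 in the fit blocked by animal (adjusted p 0.00589). Within session 1, CD40 at day 7 changed by −3.19 and was called.

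Of 10 other inhibitors and deubiquitinases tested, out of 14 listed, 1 rose on each of the 3 days and 1 fell at day 3, which at days 3 and 5 is close to the shares of all named genes. The riser was NFKBIZ, a nuclear IkB protein that is an NF-kB target and a co-activator, with changes of 1.32 ± 0.23, 1.04 ± 0.15 and 0.97 ± 0.20 (adjusted p 0.00144, 0.000217 and 0.00264). With the scan session as a block NFKBIZ changed by 1.74, 1.46 and 0.97, called at day 7 alone (in the fit of all 4 groups with that block also at day 3, adjusted p 0.00491), and within session 1 at day 7 by 0.91 (adjusted p 0.0115). With the animal as a block it was not called at days 3 and 7 (adjusted p 0.0121 and 0.00739). NKRF, a nuclear repressor of NF-kB target genes, changed by −0.93 ± 0.17 at day 3 (adjusted p 0.00187, and 0.0187 with the animal as a block, where it was not called) and by −0.51 and 0.13 later.

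Textbook target genes outside the members, 22 tested of 28 listed, had the largest median shift of the 5 pathway lists, with median log2 changes of 0.995, 0.87 and 0.42. At day 3 6 rose and 1 fell, at day 5 7 rose and 1 fell, and at day 7 1 rose and 1 fell, the last close to the 2.67 and 7.19% of all named genes. By limma 18, 18 and 11 of the 22 had an unadjusted p under 0.05, against 46.9, 43.9 and 38.2% of all named genes. With the animal as a block 1, 6 and 1 rose and 1 fell on each day. IL1B, a pyrogenic cytokine, changed by 2.21 ± 0.41, 1.97 ± 0.28 and 0.78 ± 0.36 (adjusted p 0.0021, 0.000158 and 0.122), and CXCL10, an interferon-inducible chemokine, by 3.27, 2.99 and 0.77 (adjusted p 0.0058, 0.00381 and 0.421). The fit of CXCL10 left out the pre-irradiation array of animal 5, whose spot was marked as an outlier by the scanner. Blocked by animal, the day 3 call of IL1B and the day 5 call of CXCL10 were lost (adjusted p 0.00721 and 0.00532). With the scan session as a block IL1B changed by 2.43 at day 3 and was called neither there nor at day 5 (adjusted p 0.101 and 0.0341). Without the array of animal 5 no control of CXCL10 lies in session 2, so session and day cannot be told apart for it. The gene that fell was BCL2L1, a survival factor also abundant in red cell precursors, with changes of −2.95, −3.76 and −2.98. With the session block its changes were −3.47, −4.28 and −2.98, and the day 3 call was lost (adjusted p 0.0264). In the fit of all 4 groups with that block its day 3 change was −3.64 and called (adjusted p 0.000377). The gene that rose at day 7 was IER3, an immediate early gene not well above background on any control array, at least 1.07-fold higher (adjusted p 0.00244, and 0.0122 within session 1). With the normexp background all 5 lists together held 1, 2 and 2 called genes on the 3 days.

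**Figure D4:**
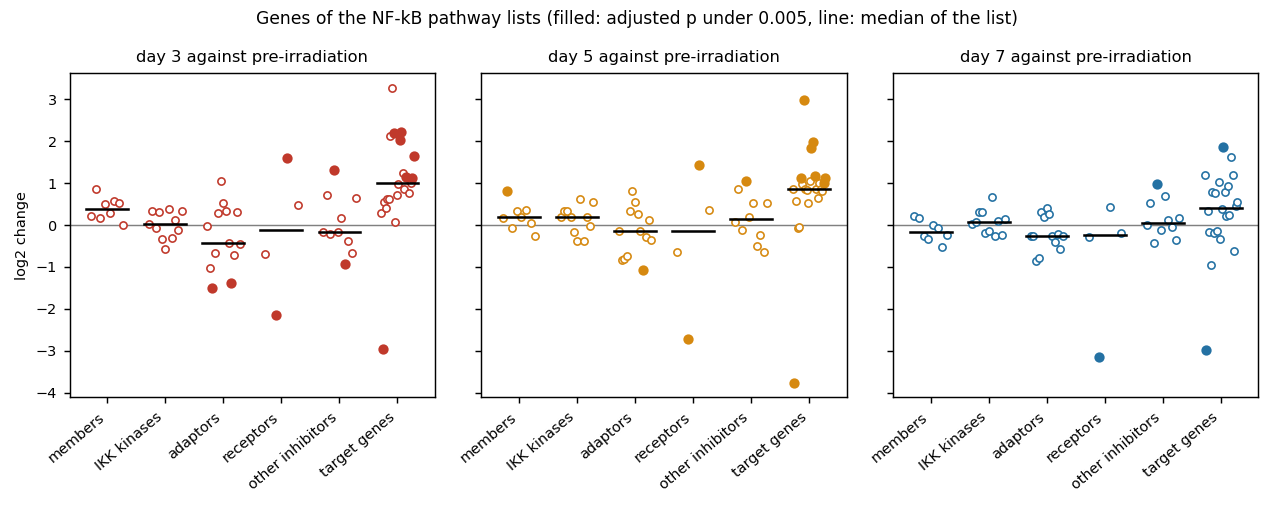
The log2 change against pre-irradiation (y axis) of every tested gene of the members and of the 5 pathway lists (x axis) is plotted by day, filled when called and with the median of the list as a line. The target genes lie mostly above 0 at days 3 and 5, with BCL2L1 far below, and the members lie within 1 of 0 on the log2 scale on each day.

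In bulk blood, fewer cells of a type and less RNA per cell cannot be told apart. The markers of several cell types moved over the same days. Of all named genes, 5.96, 6.24 and 2.67% were called higher and 7.58, 9.12 and 7.19% lower at days 3, 5 and 7. All 10 tested of 11 B cell markers fell at days 3 and 5 and 9 fell at day 7. The summed normalized intensity of the B cell markers was 42352 to 54742 in the controls and 2895 to 7032, 3182 to 5237 and 3767 to 8846 at days 3, 5 and 7. PAX5, a defining B cell marker, was not well above background on any array. CD40, RELB and REL are used by B cells among others.

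All 7 platelet markers tested rose at day 3, 1 at day 5 and none at day 7. Their summed intensity was 42898 to 118306 in the controls and 360796 to 596816, 100037 to 154621 and 34040 to 114718 at days 3, 5 and 7. Red cell markers fell, 7, 8 and 7 of 8, to medians of 0.329, 0.0607 and 0.0758 of that of the controls. Their sums were 1.19e+06 to 2.77e+06 in the controls and 338023 to 777154, 79467 to 126471 and 20279 to 920214 at days 3, 5 and 7. This list includes the globin genes HBB and HBA1, and the RNA was depleted of globin transcripts. Of T cell markers, 2, 1 and 0 of 9 fell, the 1 at day 5 close to the 9.12% of all named genes called lower. Their summed signal ran from 78640 to 129927 before irradiation. It was 39852 to 95410, 60346 to 89686 and 75792 to 147825 at days 3, 5 and 7. Of neutrophil markers 1, 1 and 2 of 9 rose, with sums of 180685 to 395246 in the controls and 328507 to 903888, 355325 to 710266 and 302053 to 880969 at days 3, 5 and 7, and of monocyte markers 2, 2 and 1 of 7 rose. None of 8 NK cell markers was called. With the animal as a block 0, 1 and 2 neutrophil markers and 1, 1 and 0 monocyte markers rose, and 1, 2 and 0 T cell markers fell. The platelet markers that rose were then 6, 2 and 0, and the red cell markers that fell 6, 8 and 6. The part of these shifts in the levels of NFKB2, RELA and the other members was not tested.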

How the data were processed

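The authors scanned the arrays with Agilent Feature Extraction, version 10.7 per the labels although the headers of the scanner output name a later one, and deposited the scanner output with processed signals, an intensity on a linear scale from which the local background had been subtracted. The deposited series matrix holds log2 values normalized by the authors to the median array. It covers 4 of the 13 probes and served as an alternative. Scanner output and labels name a rhesus array, the methods a human one.

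Here, the processed signal was taken to log2, outlier-flagged spots were left out, spots of a probe were averaged and arrays were aligned to the array of middle median by subtracting their offset from it (−2.03 to 0.87). Probes well above background on 4 or more of the 24 arrays were tested (27133) with limma 3.58.1 in R 4.3.3, in a separate fit for each comparison, two-sided, at a Benjamini-Hochberg adjusted p under 0.005, with no covariate. Summaries used Python 3.11.15. The fit was tested on simulated data. The scanner output gave gene names to 23052 of 43603 probes and RefSeq to a further 898. Printed sequences come from the scanner output.

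Replicate numbers mark animals according to the labels and the supplement. Arrays of 1 number deviated together (r from 0.13 to 0.41, 0.17 to 0.45 and 0.13 to 0.44 at days 3, 5 and 7 against pre-irradiation), while different numbers had negative medians. p-values measure the spread between animals.

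Named were all members, from each pathway list the 3 called genes with the largest change and those behind counts of 5 or fewer, and the 3 genes most like a called member. IKBKB and MAP3K14 were named for their role after their values were seen. The members, lists and alternatives were chosen with earlier results of these data known. Alternatives were other normalizations, background correction, filters, blocks for animal, slide and scan session, all groups in 1 fit, other gene rules and each animal left out.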

Additional observations from a re-analysis of the deposited data

Results flagged for a closer look

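Within each group of 4 to 7 arrays, the array farthest from the rest was examined for each of the 13 probes. In 4 of 52 groups the gap of 1 array to its neighbour exceeded Dixon's 95% critical value, where chance gives about 1 in 20 groups, or 2.6.

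At day 5, animal 3 had the lowest signal of NFKB2 probe 1, at 7.67, while the other 5 arrays lay between 8.14 and 8.22. At day 7, animal 3 had the highest signal of NFKB2 probe 2, at 6.61 against 5.43 to 5.79 on the other 6 arrays, and the lowest of RELA probe 1, at 11.86 against 12.50 to 12.75. At day 3, animal 4 had the highest signal of RELA probe 3, at 7.61 against 6.86 to 6.97 on the other 3 arrays. The part of RNA quality or hybridization in these arrays was not tested. Without animal 3 the day 5 change of NFKB2 probe 1 was 0.78 and remained called (adjusted p 0.00213 by limma). Without animal 4 the day 3 change of RELA probe 3 was 0.84 and without animal 3 the day 7 changes of RELA probe 1 and NFKB2 probe 2 were 0.04 and −0.19, none called.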

How the results depend on the processing

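The count of member genes called was compared under each alternative by limma at an adjusted p under 0.005. At day 3 the count of 0 became 1 in a fit of all 4 groups (NFKB2), 1 in that fit with the replicate block, 2 with no filter on dim probes (NFKB2 and RELA) and 3 at an adjusted p under 0.05. At day 5 the count of 1 became 0 with the scan session as a block (also in the fit of all groups and within scan session 2), 0 with normexp background and 2 at an adjusted p under 0.05, and it ran from 0 to 1 when each animal was left out, being kept without animal 3 or 5. For day 7 against day 3 the count of 0 became 1 in the fit of all groups with the replicate block (RELB) and 3 at an adjusted p under 0.05. In all other comparisons and alternatives run, leave-one-out included, the counts did not move. With the authors' normalized values the day 5 count was also 1, but there it was RELA, since those values hold no row of NFKB2 probe 1. With the replicate block NFKB2 probe 1 changed by 0.86 at day 5 (adjusted p 0.00233) and by 0.75 at day 3 (adjusted p 0.0267), and the block changed no other call of a member in the comparisons fitted 2 groups at a time. The genes called in the 5 pathway lists, 13, 12 and 4 at days 3, 5 and 7, became 1, 2 and 2 with normexp background. At day 3 they became 4 with the replicate block, 3 in the fit of all groups with the scan session as a block and 0 within scan session 2, and at day 5 they became 3 and 1 under these same session settings. At day 7 they became 2 within scan session 1. The sign of the change held in every alternative run for 10, 4 and 6 of the 13 probes at days 3, 5 and 7. The fits of all groups with a block and those within a scan session were chosen after seeing the data. With no filter on dim probes the median of all named genes moved to 0.16, 0.29 and 0.26 at days 3, 5 and 7, so those changes are to be read against that shift. The scan session could not be fitted for day 5 against day 3, nor the slide for day 5 against pre-irradiation or day 7 against day 5. Cause of these differences was not tested, and the few arrays limit what can be detected.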
